A study of Mus musculus with 24 samples.

Results

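The high-dose decitabine arm of this mouse tumor series was compared with its untreated time-separated arm, taking samples labeled with 2 mg/kg decitabine (DAC) against those labeled time separated with no treatment. These were 12 of the 24 tumors of the series, 6 from 3 high-dose mice (numbers 7, 10 and 16) and 6 from 3 untreated mice (numbers 4, 17 and 19), and each tumor gave a TCRβ and a TCRα library. All 6 were female BALB/c mice aged 7 to 9 weeks that carried CT26.CL25 tumors in both flanks, set with extracellular matrix gel, where CT26.CL25 is a clone of the CT26 colon carcinoma that expresses beta-galactosidase. In each mouse 1 tumor was removed by surgery under analgesia (carprofen and buprenorphine), and the other was harvested 11 days later. High-dose mice received DAC into the peritoneum on 5 consecutive days from 3 days after surgery, and harvest followed 4 days after the last dose. The untreated mice had the same surgery and the same interval without DAC. Randomization after surgery is described only between the low and the high DAC dose, with the time-separated mice as untreated control. Cohort and treatment therefore cannot be told apart here. Only the tumor left in place was present during dosing, and the labels number the tumors without saying which was removed first. Each high-dose value over both tumors of a mouse therefore includes 1 tumor that was never exposed, and tumor 1 and tumor 2 carry no order in time.

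A T cell receptor is built from an α and a β chain, each joined from V and J segments (and D in the β chain) while the T cell matures. The CDR3, which spans the join and holds bases added or trimmed there, contacts the bound peptide and differs most between T cells. The progeny of a T cell keep its rearrangement, so a sequence that takes up a large share of the RNA counts usually comes from an expanded clone, although the same sequence can also arise more than once. Decitabine is a cytosine analog that inhibits DNA methyltransferases and thereby lowers DNA methylation. In this section a clonotype is a set of sequences with the same CDR3 amino acids, V and J, and a share is its percent of the counts retained in a tumor. RNA came from whole tumors, so fewer T cells of a clone and less receptor RNA per cell cannot be told apart.

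The largest clonotype of each mouse shows what these tumors held. CDR3 bases are given 5′ to 3′, and capitals mark the bases that lie between the stretch shared with the usual CDR3 start of the V segment and the stretch shared with the usual CDR3 end of the J segment, both taken from all clonotypes of the series. For TCRβ the leading clonotypes were these.
TCRβ, high-dose mouse 7, TRBV17 and TRBJ2-7: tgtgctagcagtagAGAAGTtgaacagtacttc
TCRβ, high-dose mouse 10, TRBV17 and TRBJ1-6: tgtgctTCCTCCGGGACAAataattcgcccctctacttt
TCRβ, high-dose mouse 16, TRBV13-2 and TRBJ2-5: tgtgccagcggtgaGGCcacccagtacttt
TCRβ, untreated mouse 4, TRBV13-3 and TRBJ2-5: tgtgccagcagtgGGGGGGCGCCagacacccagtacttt
TCRβ, untreated mouse 17, TRBV17 and TRBJ2-7: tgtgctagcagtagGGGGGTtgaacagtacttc
TCRβ, untreated mouse 19, TRBV17 and TRBJ2-7: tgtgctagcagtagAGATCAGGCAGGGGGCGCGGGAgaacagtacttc
The clonotype of mouse 16 carried 3 bases in capitals in a CDR3 of 30 bases and held 30.002% of tumor 1 (95% Clopper-Pearson interval 29.91 to 30.10) and 33.1% of tumor 2 (32.96 to 33.25). That of mouse 10 held 18.9% and 13.9%, and that of mouse 7 held 0.606% of tumor 1 but 15.9% of tumor 2. Among untreated mice, the leading clonotype of mouse 17 held 15.4% and 16.6%, that of mouse 19 held 7.78% and 19.7%, and that of mouse 4 held 2.02% and 8.51%. These clonotypes lead by the mean share of both tumors and not in every tumor. Those of mice 7, 4 and 19 ranked 24, 10 and 2 in tumor 1, and that of mouse 10 ranked 2 in tumor 2. TRBV17 led in 4 of the 6 mice, in both groups.

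The leading TCRα clonotypes had few bases between their V and J stretches.
TCRα, high-dose mouse 7, TRAV7-3 and TRAJ26: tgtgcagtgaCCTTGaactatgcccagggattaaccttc
TCRα, high-dose mouse 10, TRAV3-3 and TRAJ13: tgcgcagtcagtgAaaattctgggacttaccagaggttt
TCRα, high-dose mouse 16, TRAV9D-4 and TRAJ53: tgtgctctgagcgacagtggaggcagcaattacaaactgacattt
TCRα, untreated mouse 4, TRAV8-2 and TRAJ48: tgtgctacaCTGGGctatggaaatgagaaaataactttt
TCRα, untreated mouse 17, TRAV12-1 and TRAJ30: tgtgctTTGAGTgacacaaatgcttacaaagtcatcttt
TCRα, untreated mouse 19, TRAV12-2 and TRAJ30: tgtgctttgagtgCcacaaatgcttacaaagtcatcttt
Capitals numbered 0 to 5 bases in the high-dose mice and 1 to 6 in the untreated mice. The clonotype of mouse 7 held 15.4% of tumor 1 and 15.5% of tumor 2, that of mouse 10 held 16.0% and 21.1%, and that of mouse 16 held 15.2% and 17.9%. The untreated values were 4.04% and 15.1% for mouse 4, 7.93% and 7.12% for mouse 17, and 1.35% and 14.3% for mouse 19. These values follow 1 clonotype per mouse through both tumors. In tumor 1 of mouse 4 another clonotype led, at 14.7% of counts. The clonotype of mouse 17 ranked 2 in tumor 2, and that of mouse 19 ranked 6 in tumor 1.

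After sequences with a stop or frame mark and sequences of a single count were left out, high-dose TCRβ libraries held 64192 to 887567 counts and untreated ones 97815 to 207072. The TCRα libraries held 26623 to 236622 and 73240 to 183066 counts. The shallowest TCRα library of the series was tumor 2 of high-dose mouse 7, and every library of a chain was thinned to the smallest one before diversity was compared, to 63291 counts for TCRβ and 26623 for TCRα. Intervals and limits cover counting error only, since counts of 1 sequence need not be independent molecules. With 3 mice against 3, a two-sided exact permutation test over mice cannot give a p under 0.1, and 13 values were tested per chain. The 3 TCRβ values and 6 TCRα values whose groups did not overlap all had this smallest exact p of 0.1, and after adjustment over the 13 values of a chain the smallest p was 0.433 for TCRβ and 0.217 for TCRα (exact permutation test, Benjamini-Hochberg). None therefore passed 0.05. Permutation p-values for single segments, D segments and J clusters, invariant α chains and sequences with a stop or frame mark stand outside this adjustment, and none of them could be under 0.1 either. Whether the samples of a group came from separate experiments is not stated, so the p-values measure the spread between these mice.

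High-dose mice averaged fewer TCRβ clonotypes than untreated mice at equal numbers of retained counts. Mouse 7 had 2579 clonotypes in tumor 1 and 777 in tumor 2, mouse 10 had 2142 and 1606, and mouse 16 had 1388 and 1060. Untreated mouse 4 had 2131 and 2580, mouse 17 had 2352 and 1770, and mouse 19 had 2416 and 1419. Averaged over the tumors of a mouse, the means of 1678, 1874 and 1224 all lay below the untreated means of 2355, 2061 and 1918, although single tumors of the groups overlapped widely. Group means were 1592 ± 333 and 2111 ± 223 (SD, n = 3 mice), a ratio of 0.754, with the exact permutation p of 0.1 stated above. Without thinning the group means were 2361 and 2476, the difference shrank from -519 to -115, and the groups overlapped. Single counts had been removed before thinning, and their median was 2.64% of counts in high-dose TCRβ libraries and 4.76% in untreated ones, at median retained counts of 368350 and 172007. Keeping them widened it to -2456, and leaving out mouse 16 narrowed it to -335 with the groups still apart.

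TCRα clonotype numbers were 1195, 1319 and 920.5 in the high-dose mice and 1528, 1502 and 1290 in the untreated mice. Mouse 10 lay above mouse 19, so the groups overlapped (1145 ± 204 against 1440 ± 131, exact permutation p = 0.2). The difference of -295 was -148.5 without thinning and -183 without mouse 16, and with single counts kept it was -874 and the groups no longer overlapped. They also separated without mouse 10 (-382) or mouse 19 (-370). In the 3 high-dose mice tumor 2 held fewer clonotypes than tumor 1 in both chains. The same was seen in 3 of 3 untreated mice for TCRα and in 2 of 3 for TCRβ.

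The normalized Shannon index, which is 1 when all clonotypes are equally frequent, was lower in high-dose mice for TCRα. It was 0.643, 0.595 and 0.595 in mice 7, 10 and 16 and 0.706, 0.688 and 0.719 in mice 4, 17 and 19. No high-dose mean reached the lowest untreated mean, and the group means were 0.611 ± 0.0280 and 0.704 ± 0.0155. For TCRβ the index was 0.574, 0.535 and 0.402 against 0.651, 0.567 and 0.635. Mouse 7 lay just above untreated mouse 17, so these groups overlapped (exact permutation p = 0.2), and without mouse 16 the mean difference narrowed from -0.11 to -0.0632. The Gini coefficient, which is 0 for equal clonotypes and nears 1 when few clonotypes hold most counts, gave the mirror image. For TCRα it was 0.8503, 0.869 and 0.882 in high-dose mice and 0.817, 0.831 and 0.799 in untreated mice, with no overlap. For TCRβ it was 0.898, 0.908 and 0.948 against 0.862, 0.902 and 0.836, with mouse 7 below untreated mouse 17. With single counts kept, or with the largest clonotype left out, neither TCRβ index overlapped between the groups, and the same held without mouse 7 or without mouse 17.

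**Figure D1:**
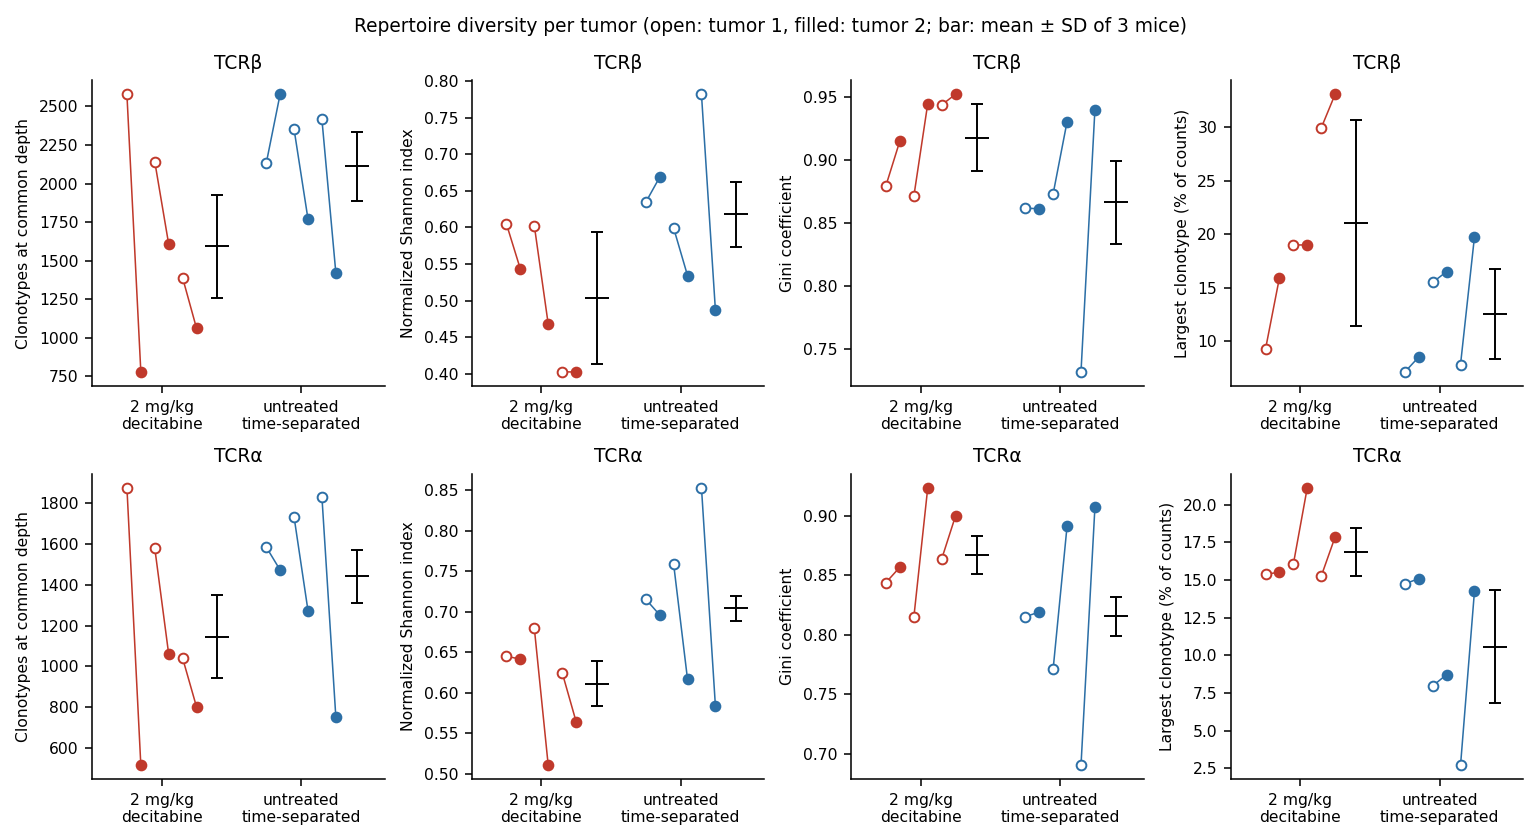
Clonotype number, normalized Shannon index, Gini coefficient and share of the largest clonotype (y axes) in each tumor of the 3 high-dose mice (red) and 3 untreated mice (blue), for TCRβ above and TCRα below. Lines join tumor 1 (open) and tumor 2 (filled) of a mouse and bars give mean ± SD of 3 mouse means. The y axes do not start at 0, and the tumors of untreated mouse 19 span from 2.69% to 14.2% for the largest TCRα clonotype, while the 6 high-dose tumors lie between 15.2% and 21.1%.

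Expanded clonotypes took up more of the counts in the high-dose mice. The largest TCRα clonotype at equal numbers of retained counts averaged 15.4%, 18.6% and 16.6% of counts in mice 7, 10 and 16, and 14.9%, 8.34% and 8.46% in mice 4, 17 and 19. Mice 7 and 4 lay close together, and once that clonotype was removed from every mouse the share of the next one overlapped between groups (mean difference 5.24 against 6.29 percentage points). The TCRβ shares were 12.6%, 19.0% and 31.5% against 7.82%, 16.0% and 13.8%, which overlapped (exact permutation p = 0.3). Mouse 16 carried much of this difference, which was 8.51 points with it and 3.27 points without it. Without mouse 7 the difference was 12.7 points and the groups separated.

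Clonotypes above 1% of counts held 72.5%, 68.9% and 83.8% of TCRβ counts in the high-dose mice and 55.2%, 66.6% and 55.9% in the untreated mice. The corresponding TCRα shares were 62.7%, 61.3% and 65.7% against 45.4%, 52.7% and 44.8%. In both chains every high-dose mouse lay above every untreated mouse, by a mean of 15.8 points for TCRβ and 15.7 points for TCRα. The number of clonotypes in this class was not larger: it averaged 13.0 ± 3.803 and 15.5 ± 2.69 for TCRβ and 14.0 ± 1.97 and 14.8 ± 1.44 for TCRα. For TCRα the clonotypes above 10% set the mice apart, with 20.9%, 32.3% and 25.3% of counts against 14.9%, 0% and 13.0%. Between 1% and 10% the TCRα groups overlapped, at 29.0% to 41.9% and 30.5% to 52.7%. The TCRβ share above 10% ran from 7.97% to 60.1% in high-dose mice and from 0% to 29.0% in untreated mice.

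The smaller classes were correspondingly lower. Clonotypes at or below 0.1% held 17.9%, 17.2% and 10.4% of TCRβ counts in high-dose mice and 27.2%, 18.5% and 29.3% in untreated mice. For TCRα they held 18.4%, 19.5% and 15.9% against 26.3%, 24.2% and 26.5%. The class from 0.1% to 1% held 9.54%, 13.9% and 5.76% of TCRβ counts against 17.6%, 14.9% and 14.8%, and 18.8%, 19.2% and 18.3% of TCRα counts against 28.3%, 23.1% and 28.7%. None of these classes overlapped between the groups. The middle class was a description and was not tested, because the classes of a tumor add up to the whole. Single tumors did overlap: tumor 2 of untreated mouse 19 had 81.9% of TCRβ counts above 1%, more than 5 of the 6 high-dose tumors.

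**Figure D2:**
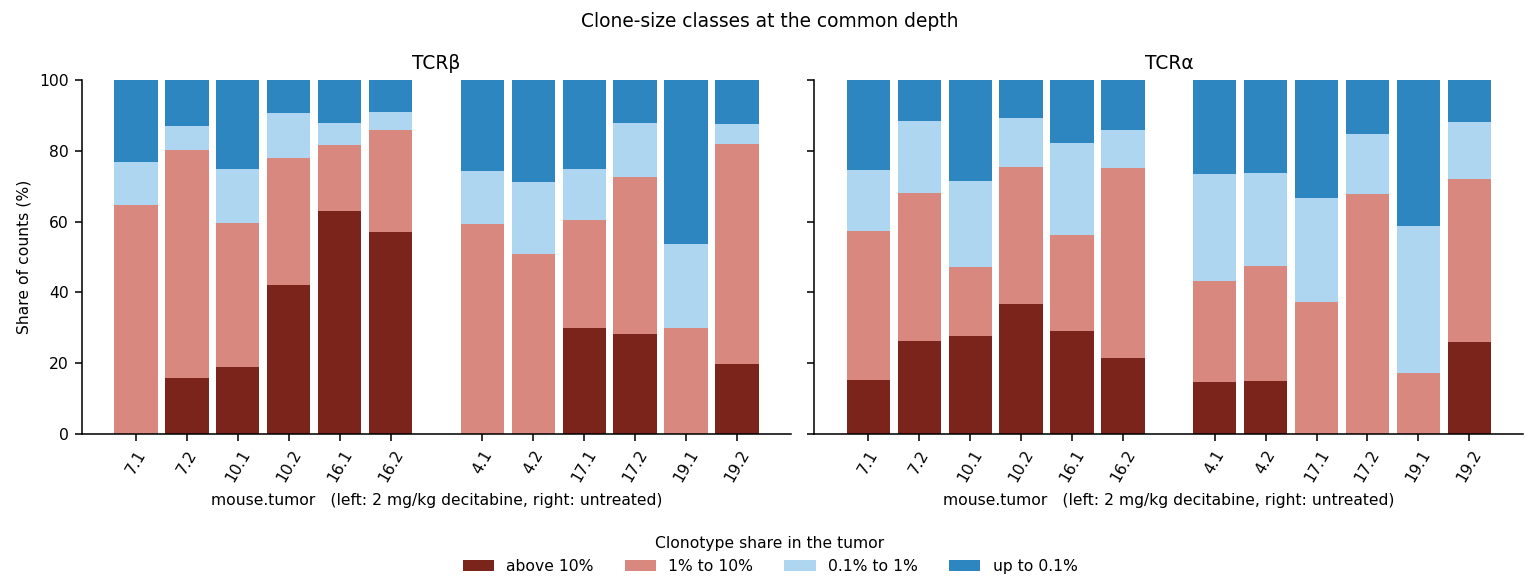
Share of counts (y axis, percent) in 4 clone-size classes, stacked for each tumor and labeled by mouse and tumor number, TCRβ left and TCRα right. The 6 high-dose tumors stand left of the 6 untreated tumors in each panel, and the blue part (clonotypes up to 0.1%) reaches 46.3% for TCRβ and 41.3% for TCRα in tumor 1 of untreated mouse 19, against at most 25.1% and 28.4% in a high-dose tumor.

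CDR3 length gave no difference beyond the spread between mice. With each clonotype counted once, the mean TCRβ length was 13.6, 13.6 and 13.4 residues in high-dose mice and 13.7, 13.5 and 14.4 in untreated mice (exact permutation p = 0.3). Weighted by counts it was 13.2, 13.2 and 12.4 against 13.2, 12.7 and 14.3 (exact permutation p = 0.4). Untreated mouse 19, whose leading clonotype has a CDR3 of 48 bases, set the upper end, and without it the mean differences narrowed from -0.33 to -0.0750 and from -0.52 to -0.0643 residues. Mouse 16, led by the 30-base CDR3 printed above, set the lower end: CDR3s of 10 residues held 33.3% of its TCRβ counts, against 2.97% to 7.79% in mice 7 and 10 and 1.47% to 10.6% in untreated mice. Without mouse 16 the count-weighted difference was -0.25 residues, and with the largest clonotype removed it was -0.11. Without untreated mouse 17 the differences widened to -0.50 residues by clonotypes and -0.87 by counts, and in both the groups no longer overlapped. TCRα length averaged 13.7 ± 0.195 and 13.6 ± 0.0704 residues by clonotypes (exact permutation p = 0.7). Weighted by counts the TCRα difference of 0.26 residues was 0.0687 without mouse 16, and it was 0.41 without mouse 7, when the groups no longer overlapped. Single lengths were viewed where they held at least 2% in either group. No TCRβ length had groups that did not overlap, of 7 by clonotypes (0%) and 8 by counts (0%), against 1 of 7 TCRα lengths by clonotypes (14.3%) and 2 of 6 by counts (33.3%). The lengths of a mouse add up to the whole and are not independent. By clonotypes the TCRα length was 14 residues, at 23.3% to 24.3% of clonotypes in high-dose mice and 25.1% to 29.3% in untreated mice. Weighted by counts, 14 residues again had all high-dose mice below (13.4% to 19.4% against 19.4% to 28.7%, where mice 7 and 4 differed by less than 0.1 points), and so had 11 residues. These lengths were singled out after all lengths had been viewed and were not tested.

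V and J usage was compared per segment, on counts, which weight expanded clones, and on clonotype numbers, which count each clonotype once. No segment passed an adjusted p of 0.05 in edgeR's quasi-likelihood test on either measure. On counts this was 0 of 38 TCRβ segments (0%) and 0 of 115 TCRα segments (0%), with 2 and 11 at an unadjusted p under 0.05 and a smallest adjusted p of 0.490. On clonotype numbers it was 0 of 29 (0%) and 0 of 83 (0%), with 0 and 1 at an unadjusted p under 0.05 and a smallest adjusted p of 0.724. DESeq2 called 0 on both measures as well. The median standard error of a log2 fold change was 1.01 for TCRβ and 1.02 for TCRα on counts, and 0.38 and 0.45 on clonotype numbers. Differences well above these errors were not called either: TRAJ24, at -3.15 ± 1.04 (SE) on counts, had an edgeR adjusted p of 0.490, and was named here after its value was seen. Over all tested segments the median log2 fold change on counts was -0.38 for TCRβ and -0.72 for TCRα. Without the filter on low values, edgeR called 3 TCRα segments on counts. TRAV5D-4 (log2 fold change -5.15) reached 3.87% and 2.46% in the tumors of untreated mouse 17 and at most 0.0933% in any other, TRAV6-4 (4.15) reached 14.9% and 9.58% in mouse 16 and at most 0.491% elsewhere, and TRAV12D-3 (-11.47) had counts only in untreated mice 4 and 19, at up to 0.671%, so that its fitted value depends on the prior count. Leaving out untreated mouse 4 or mouse 19 also brought TRAV5D-4 past the threshold.

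Averaged over the 6 mice, TRBV17 (Vβ9) and TRBV13-1 (Vβ8.3) were the V segments with the highest shares of TCRβ counts. TRBV17 held 21.1%, 34.0% and 15.2% of counts in high-dose mice 7, 10 and 16 and 7.999%, 26.9% and 32.0% in untreated mice 4, 17 and 19. TRBV13-1 held 26.0%, 12.6% and 23.6% against 23.4%, 31.8% and 11.1%. Both ranges overlapped, and the edgeR log2 fold changes on counts were -0.10 ± 0.91 (SE) and -0.08 ± 0.92. TRBV13-2 (Vβ8.2) held 12.7%, 2.92% and 47.0% in the high-dose mice and 10.6%, 6.60% and 17.5% in the untreated mice, and its high-dose mean of 20.9%, just above that of TRBV13-1 at 20.7%, rested on mouse 16. The remaining V segments among the highest 5 were TRBV13-3 (Vβ8.1), at 6.56% ± 3.93 and 7.05% ± 2.39, and TRBV4 (Vβ10), at 5.51% ± 7.05 and 6.44% ± 3.11. TRBJ2-7, TRBJ2-5 and TRBJ2-1 led the J segments, at 28.7% ± 5.10, 19.1% ± 19.6 and 12.0% ± 5.02 of counts in high-dose mice and 31.7% ± 2.71, 9.77% ± 1.87 and 12.3% ± 3.31 in untreated mice. Counted by clonotypes, TRBJ2-7 was at 22.4% ± 2.70 and 22.3% ± 0.3997. None of the 27 TCRβ segments with at least 1% of clonotypes had high-dose mice all above (0%) or all below (0%) the untreated mice. Joining to the TRBJ2 cluster accounted for 74.4% ± 11.9 and 72.5% ± 3.46 of distinct sequences, and the high-dose range of 63.1% to 86.7% enclosed the untreated range of 70.01% to 76.4%.

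For TCRα, 68 segments held at least 1% of clonotypes in either group. In 3 of them (4.41%) the high-dose mice all lay above the untreated mice and in 4 (5.88%) all below. Complete separation in a given direction occurs in 1 of the 20 assignments of 6 mice to groups of 3, which is near both of these shares. The segments are therefore listed as a description. TRAV16 made up 2.82%, 3.45% and 3.67% of clonotypes in high-dose mice and 2.30%, 2.04% and 2.15% in untreated mice. TRAJ35 was at 1.94%, 1.31% and 1.53% against 0.796%, 1.054% and 1.26%, and TRAV17 at 0.919%, 0.822% and 1.34% against 0.657%, 0.763% and 0.644%. Those below were TRAV4-2, TRAV8-1, TRAV6-5 and TRAV14-2. TRAV4-2 made up 0.955%, 0.838% and 0.686% against 1.47%, 1.07% and 2.43%, and TRAV8-1 0.881%, 1.09% and 1.96% against 2.51%, 2.01% and 2.63%. TRAV6-5 was at 2.34%, 2.30% and 2.41% against 4.54%, 2.64% and 4.05%, and TRAV14-2 at 1.01%, 0.670% and 0.867% against 1.19%, 1.11% and 1.29%. Each of these 7 had an edgeR adjusted p of 0.724 on clonotype numbers. By counts, TRAV16 was again higher in every high-dose mouse, and TRAV4-2 and TRAV14-2 lower, while the other 4 overlapped. Low-dose mice ranged from 1.71% to 3.88% for TRAV16 and from 4.03% to 7.11% for TRAV6-5. BALB/c mice carry near-identical copies of many TRAV segments, and reads of a copy may be assigned to its partner. Merging the copies left 0 calls on either measure, and this setting was chosen after the data were seen.

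**Figure D3:**
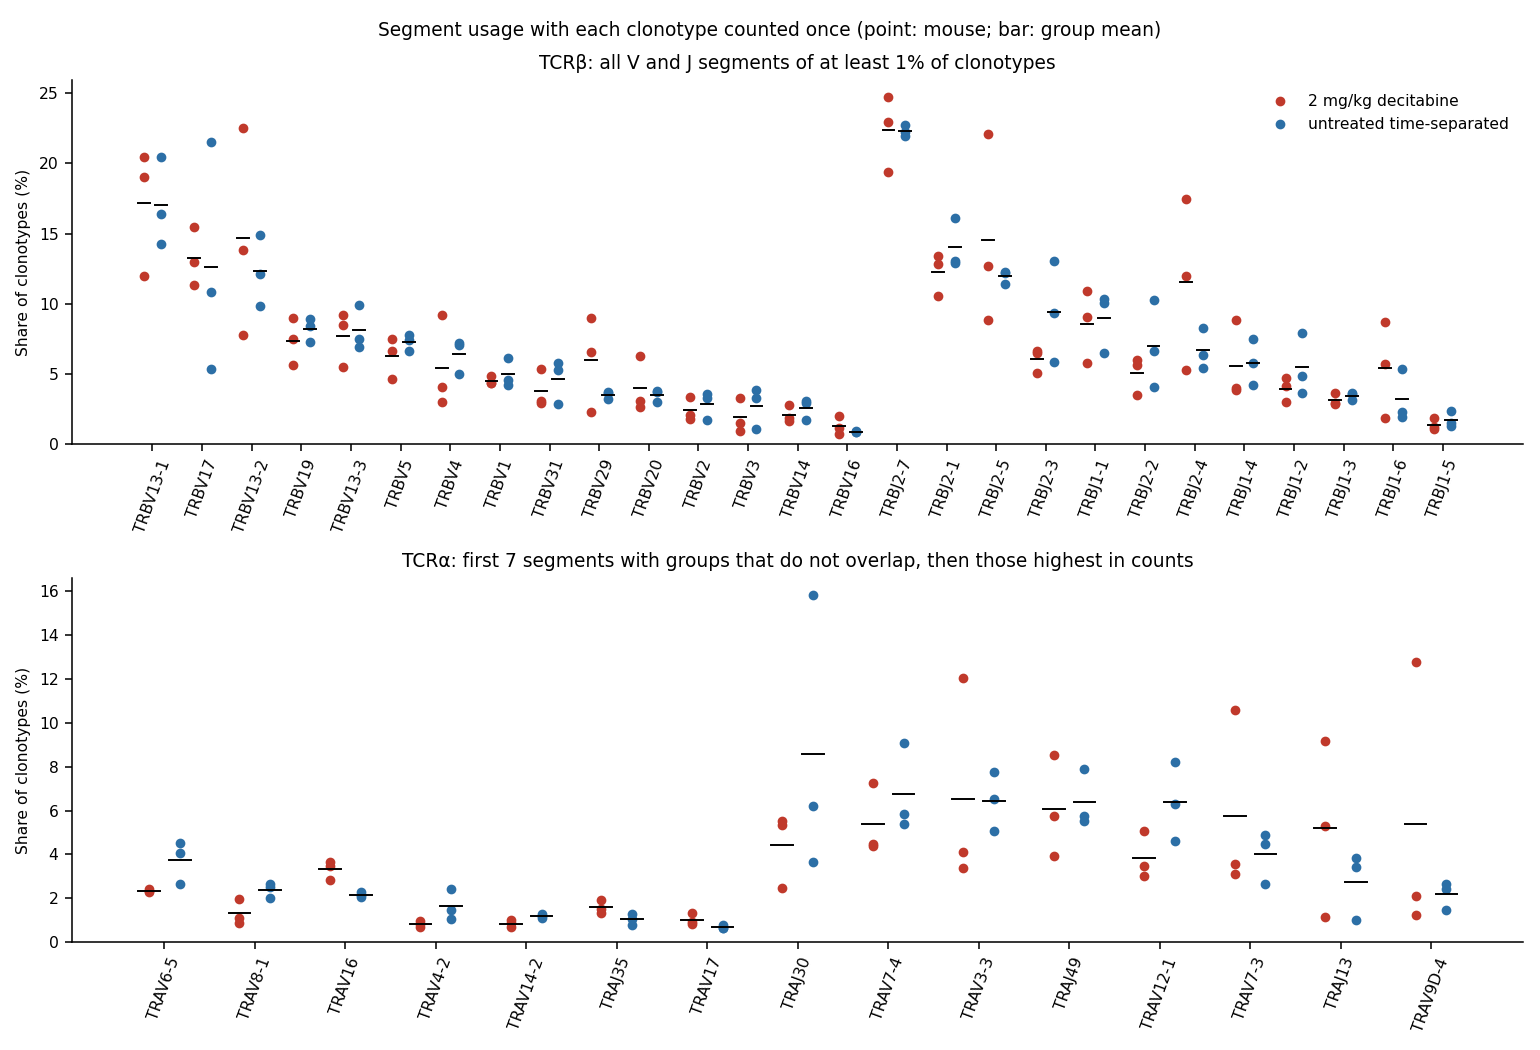
Share of clonotypes per mouse (y axis, percent) for each V and J segment on the x axis, with high-dose mice in red, untreated mice in blue and group means as bars. The upper panel holds the 27 TCRβ segments, none with separated groups, and the lower panel holds the 15 named TCRα segments, of which the first 7 have groups that do not overlap.

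The TCRα segments with the highest shares of counts included those of the leading clonotypes. TRAV9D-4 held 31.4% of counts in mouse 16 and at most 2.72% in mice 7 and 10, and TRAV7-3 held 22.3% in mouse 7, the mice whose leading clonotypes use them. TRAV3-3 and TRAJ13 held 30.1% and 28.0% in mouse 10, whose leading clonotype joins both. TRAV12-1 was lower in counts in every high-dose mouse, at 1.95%, 5.12% and 1.49% against 5.33%, 17.0% and 6.34%, with an edgeR log2 fold change of -1.63 ± 1.09 (SE, adjusted p = 0.584). TRAJ30 held 8.09%, 8.16% and 1.30% against 4.37%, 13.9% and 20.6%. TRAV7-4 and TRAJ49 overlapped between the groups, at 5.36% ± 4.91 and 5.85% ± 3.72 in high-dose mice and 8.55% ± 4.97 and 8.99% ± 5.33 in untreated mice.

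For TCRα, the paired tumors of each high-dose mouse were more alike than those of each untreated mouse. The Morisita-Horn index, which is 1 for identical and 0 for disjoint repertoires, was 0.878, 0.879 and 0.826 in high-dose mice and 0.382, 0.798 and 0.147 in untreated mice. The groups did not overlap, but the nearest mice, 16 and 17, differed by little, and the untreated SD of 0.330 was far larger than the high-dose SD of 0.0302. The mean difference was 0.418, or 0.271 without untreated mouse 19, and once the leading clonotypes were removed it was 0.346 and the groups overlapped. For TCRβ the index was 0.547, 0.826 and 0.939 against 0.605, 0.949 and 0.604, with no separation (exact permutation p = 1). The TCRβ difference of 0.0514 was 0.163 without mouse 7, 0.166 without mouse 17 and 0.0236 without mouse 10, and it changed sign without mouse 16 (-0.0326), mouse 4 (-0.0058) or mouse 19 (-0.0060). With the leading clonotypes removed it was 0.0904.

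Private clonotypes, which were seen in 1 tumor of a mouse but not in the other, held 17.0%, 18.9% and 12.9% of TCRα counts in high-dose mice and 32.2%, 17.6% and 54.9% in untreated mice (exact permutation p = 0.2). The TCRβ values were 13.4%, 14.9% and 4.71% against 27.6%, 10.6% and 36.9% (exact permutation p = 0.3). Untreated mouse 17 lay within or below the high-dose range in both chains, and mouse 19 carried much of each difference: without it the TCRα difference narrowed from -18.7 to -8.67 points and the TCRβ difference from -14.1 to -8.13 points. Without untreated mouse 17 the differences widened to -27.3 and -21.3 points and the high-dose mice lay below the untreated mice in both chains. The TCRα groups also separated without mouse 10. The 10 largest clonotypes of either tumor differed between the tumors of a mouse by a median absolute log2 ratio of 1.12, 1.04 and 2.28 for TCRβ in high-dose mice and 1.64, 0.60 and 2.56 in untreated mice. The TCRα medians were 1.33, 2.09 and 2.08 against 2.33, 0.89 and 3.77. The groups overlapped in both chains, and without mouse 19 the sign of the mean difference turned in both, from -0.12 to 0.36 for TCRβ and from -0.50 to 0.22 for TCRα. The TCRβ difference also changed sign without mouse 7 (0.06) or mouse 10 (0.10). Without mouse 17 the differences were -0.62 and -1.22, and the TCRα groups separated. With the 20 largest clonotypes tracked they were -0.42 for TCRβ and -0.77 for TCRα.

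At full depth, 22 of the 39 TCRβ clonotypes tracked in the high-dose mice (56.4%) differed more than 2-fold between tumors, against 25 of 41 (61.0%) in the untreated mice. For TCRα these were 32 of 44 (72.7%) and 34 of 44 (77.3%). All 39 TCRβ and all 44 TCRα clonotypes tracked in the high-dose mice were found in both tumors, against 40 of 41 and 38 of 44 in the untreated mice, where 5 of the 6 missing TCRα clonotypes came from mouse 19. V usage shifted between tumors by 20.0, 21.1 and 11.1 percentage points for TCRβ in high-dose mice and by 24.4, 12.3 and 39.6 points in untreated mice. TCRα V usage shifted by 23.7, 33.9 and 28.2 points against 42.5, 28.4 and 49.9 points (exact permutation p = 0.2). J usage shifted by 35.0, 16.5 and 15.3 against 27.2, 8.01 and 24.7 points for TCRβ, and by 22.3, 27.8 and 26.6 against 31.7, 19.8 and 52.5 points for TCRα. All 4 shifts overlapped between the groups. The TCRβ V usage change averaged 17.4 and 25.4 points, and the difference was -0.919 without mouse 19, -4.84 without mouse 16 and -14.6 without mouse 17. The TCRα V difference of -11.7 was -6.86 without mouse 19 and -17.6 without mouse 17, and the TCRα J difference of -9.14 was -0.219 without mouse 19 and -16.6 without mouse 17. The TCRβ J difference of 2.29 points ran from -4.08 without mouse 7 to 5.91 without mouse 4. Without mouse 17 the high-dose mice lay below the untreated mice in TCRβ V, TCRα V and TCRα J usage change, and without mouse 10 they did so in TCRα V. With the largest clonotype removed, the TCRα V and J differences were -5.63 and -3.90 points and the TCRβ J difference was 0.348.

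**Figure D4:**
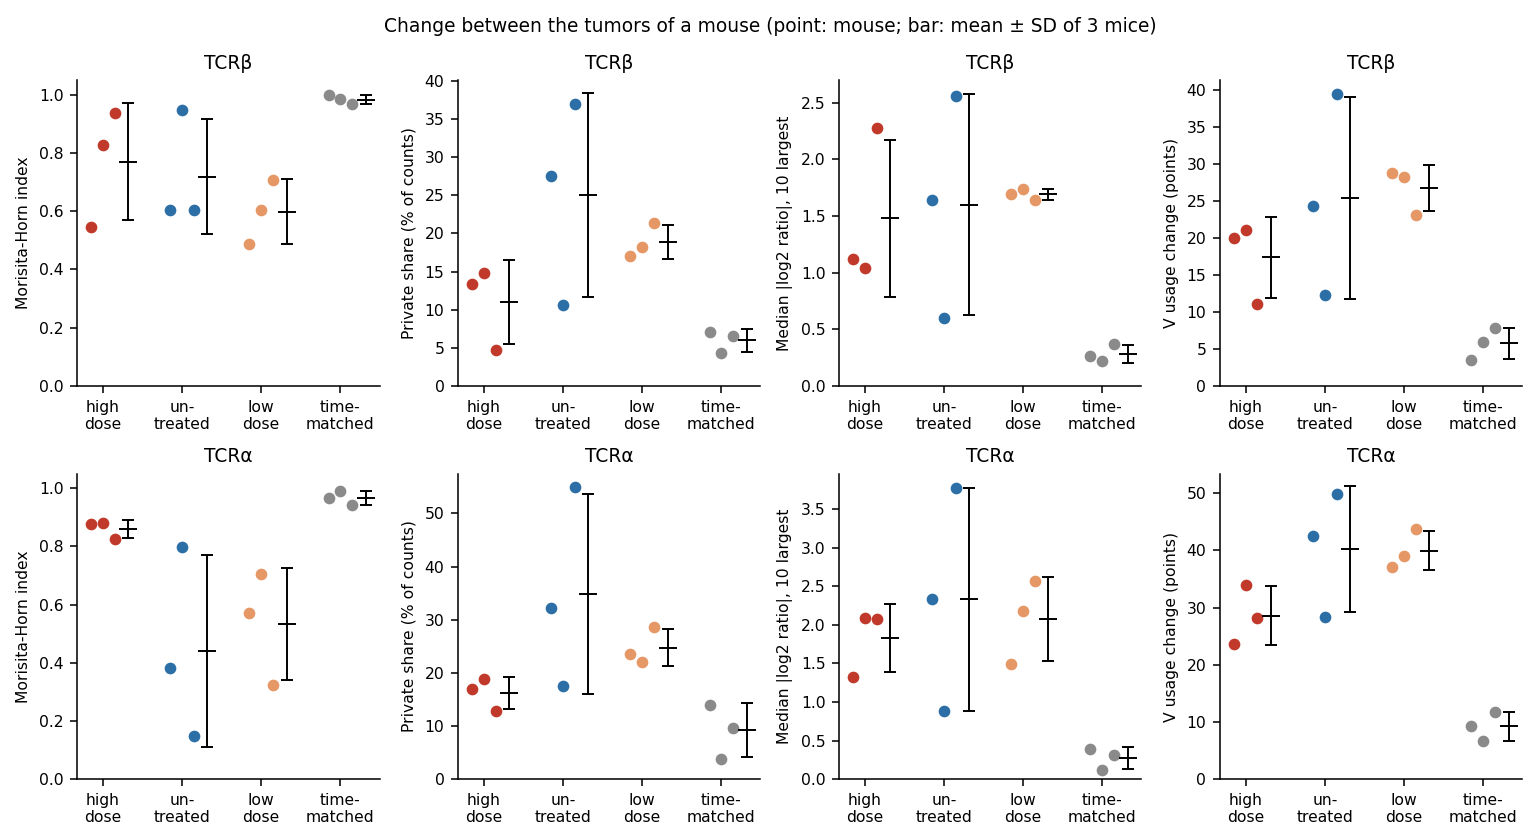
Morisita-Horn index, private share, median absolute log2 ratio of the 10 largest clonotypes and V usage change between the tumors of a mouse (y axes, all from 0), 1 point per mouse with mean ± SD of 3 mice as bars, TCRβ above and TCRα below. Red is high dose, blue untreated, orange low dose and gray the untreated time-matched mice, whose Morisita-Horn index lies at 0.941 or above in both chains.

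Single clones differed in share between the tumors of the high-dose mice, in both directions, as they did in the untreated mice. Gains and losses were chosen by the difference in share in percentage points, so other clonotypes can differ by a larger fold. The largest TCRβ gains in share from tumor 1 to tumor 2 were the TRBV17 and TRBJ2-7 clonotype of mouse 7 printed above (26.3-fold), a TRBV17 and TRBJ2-7 clonotype of mouse 10 from 6.89% to 19.0% (2.76-fold), and a TRBV17 and TRBJ2-5 clonotype of mouse 16 from 0.128% to 7.85% (61.5-fold). All 3 used TRBV17, the V segment with the highest mean share of TCRβ counts in the 6 mice (22.8%). Gains were not picked in untreated mice. There the leading TRBV17 clonotypes of mice 17 and 19 were also higher in tumor 2, at 16.6% against 15.4% and 19.7% against 7.78%. The last 2 high-dose gains are shown here with the TRBV13-1 clonotype of mouse 7 that had the largest loss there.
TCRβ, mouse 10, gain, TRBV17 and TRBJ2-7: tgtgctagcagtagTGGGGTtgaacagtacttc
TCRβ, mouse 16, gain, TRBV17 and TRBJ2-5: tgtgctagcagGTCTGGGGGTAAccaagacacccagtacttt
TCRβ, mouse 7, loss, TRBV13-1 and TRBJ2-1: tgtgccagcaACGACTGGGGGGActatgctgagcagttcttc
That TRBV13-1 clonotype held 6.17% of tumor 1 (95% Clopper-Pearson interval 6.08 to 6.26) and 0.280% of tumor 2 (0.241 to 0.324) and was found in no other mouse. The TCRβ losses with the largest difference in share in mice 10 and 16 were 1.36-fold for the leading clonotype of mouse 10 and 1.57-fold for a TRBV13-1 and TRBJ2-4 clonotype of mouse 16 that held 20.4% and 13.0%. In mouse 10, 6 of the 13 tracked TCRβ clonotypes differed more than 2-fold. For TCRα the largest gains were 6.33-fold for a TRAV12-2 and TRAJ53 clonotype of mouse 7 (0.917% to 5.81%), 1.32-fold for the leading clonotype of mouse 10, and 4.23-fold for a TRAV16D/DV11 and TRAJ17 clonotype of mouse 16 (2.36% to 9.97%). The TCRα loss of mouse 10 was a TRAV8-2 and TRAJ30 clonotype, from 3.86% to 0.0220%, or 176-fold, the largest fold among these named losses. Among all tracked TCRα clonotypes mice 7, 10 and 16 had largest absolute log2 ratios of 3.63, 7.43 and 8.01, and untreated mice 4, 17 and 19 had 10.87, 3.22 and 13.32. The TCRβ values were 4.71, 6.56 and 5.94 against 6.84, 3.14 and 10.70, so the ranges overlapped in both chains and the highest values were untreated.
TCRα, mouse 10, loss, TRAV8-2 and TRAJ30: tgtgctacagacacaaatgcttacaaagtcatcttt
TCRα, mouse 16, gain, TRAV16D/DV11 and TRAJ17: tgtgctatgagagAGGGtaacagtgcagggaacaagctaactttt
The remaining TCRα losses were 1.48-fold for a TRAV3-3 and TRAJ15 clonotype of mouse 7 (6.49% to 4.39%) and 1.53-fold for a TRAV6-4 and TRAJ6 clonotype of mouse 16 (13.9% to 9.07%). Since tumor numbers have no stated order, a gain here means a higher share in tumor 2.

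Few clonotypes separated the groups by presence. Of 23710 TCRβ clonotypes in the 6 mice, 1 was found in all 3 high-dose mice and no untreated mouse, and 7 in all 3 untreated mice and no high-dose mouse. Of 17432 TCRα clonotypes these numbers were 5 and 19. The TCRβ clonotype of the high-dose mice joined TRBV4 and TRBJ2-1 and reached at most 0.0189% of a tumor of these mice, while time-matched mouse 12 held it at 0.0399%. The 2 TCRα clonotypes named for the high-dose mice joined TRAV9-2 with TRAJ34 and TRAV7-2 with TRAJ15, at up to 0.0912% and 0.0597% of a tumor. In the untreated mice a TRBV17 and TRBJ2-7 clonotype reached 2.24% in mouse 17, a TRBV13-1 and TRBJ2-5 clonotype 0.887% in mouse 19, and a TRAV19 and TRAJ53 clonotype 0.126% in mouse 19. Another 6 TCRβ and 13 TCRα clonotypes were found in all 6 mice. Presence at a few counts needs care: the leading sequence of mouse 19, with 22 bases in capitals, was found base for base in all 12 mice of the series, at no more than 0.0124% elsewhere, and its part in the counts of shared and private clonotypes was not tested. Between mice the Morisita-Horn index had medians of 0.000562 for TCRα and 0.000954 for TCRβ among high-dose mice, 0.0257 and 0.0134 among untreated mice and 0.00914 and 0.00534 across the groups. The highest value was 0.189 for TCRα, between tumor 1 of untreated mouse 17 and tumor 2 of untreated mouse 19, and 0.132 for TCRβ, between the second tumors of high-dose mouse 10 and untreated mouse 17. The leading TCRα clonotype of mouse 17 (TRAV12-1 and TRAJ30) held 6.64% of tumor 2 of mouse 19 and 6.24% of tumor 2 of mouse 10 as well.

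TCRβ chains with the same V, J and CDR3 length recurred in the high-dose mice. Chains that join TRBV17 to TRBJ2-7 with a CDR3 of 33 bases (11 residues) held 5.26% and 24.6% of the tumors of mouse 7, 7.27% and 20.3% of mouse 10, and 7.43% and 8.70% of mouse 16. The untreated tumors held 21.6% and 25.7% (mouse 17), 1.13% and 0.189% (mouse 19), and 0.0115% and 0.00826% (mouse 4). The tumors of mouse 17 had the highest share in tumor 1 and in tumor 2 of these mice, and the mouse means overlapped (12.3% ± 3.67 against 8.10% ± 13.5). This set was chosen after its values were seen and was not tested. The leading sequences of mice 7, 10 and 17 stand above, and those of mice 16 and 19 follow.
TRBV17 and TRBJ2-7, high-dose mouse 16: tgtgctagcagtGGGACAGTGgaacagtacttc
TRBV17 and TRBJ2-7, untreated mouse 19: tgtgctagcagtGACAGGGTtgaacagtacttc
Against the sequence of mouse 17, that of mouse 10 differed at 1 base, mouse 7 at 3, mouse 19 at 4 and mouse 16 at 5. Their shared ends follow from the choice of the same V and J. Of these counts, 92.1% and 93.0% carried GTT just before the last 12 bases in the tumors of mouse 7. The shares with GTT were 96.9% and 96.5% for mouse 10, 95.5% and 95.8% for mouse 17, and 96.3% and 94.6% for mouse 19. Untreated mouse 4 had 0% and 28.6%, on only 20 and 14 counts, and its leading sequence differed from that of mouse 17 at 8 bases. Mouse 16 had 0.485% and 0.165%, and its leading sequence carries GTG there. Both GTT and GTG encode valine, so that sequence differs there from those of the other high-dose mice in a base but not in the residue. The sequence of mouse 10 was found in 11 of the 12 mice. Its clonotype held 1.44% and 4.95% of the tumors of mouse 17, but at most 4 counts in a tumor of mice 4, 7, 16 and 19. In low-dose mice these chains averaged 0.825% to 3.14% and in time-matched mice 0.00582% to 5.35%.

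The semi-invariant α chain that marks natural killer T cells, TRAV11 joined to TRAJ18 with a CDR3 of 15 residues, averaged 0.309%, 0.312% and 0.178% of TCRα counts in the high-dose mice and 0.317%, 0.318% and 0.913% in the untreated mice. The means did not overlap, but the gap between the nearest mice was small and single tumors crossed widely. Tumor 2 of untreated mouse 19 had 0 of 87179 counts, which allows a share of up to 0.00344% (3 counts of the total), while its tumor 1 had 1.83%. Chains of the mucosal-associated invariant T cell type (TRAV1 and TRAJ33, CDR3 of 12 residues) averaged 0.0521%, 0.0127% and 0.0141% against 0.0321%, 0.0930% and 0.165%, which overlapped.

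**Figure D5:**
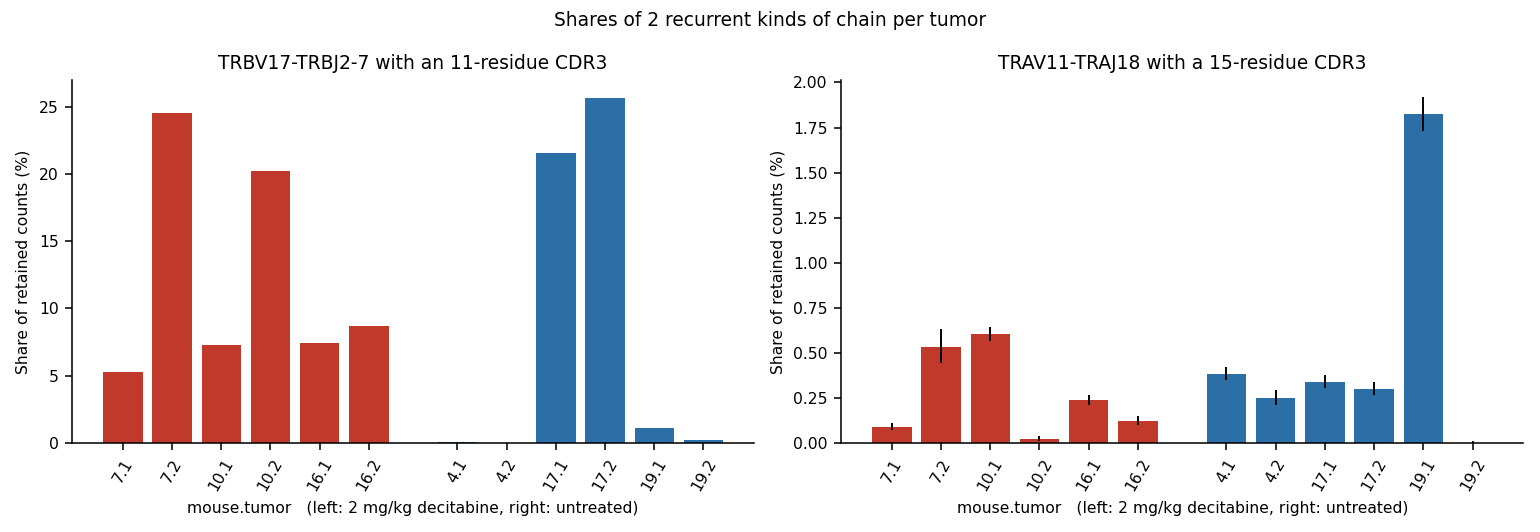
Share of retained counts (y axes, percent) per tumor for TRBV17 and TRBJ2-7 chains with an 11-residue CDR3 (left) and TRAV11 and TRAJ18 chains with a 15-residue CDR3 (right), labeled by mouse and tumor number. Red bars are high-dose tumors and blue bars untreated tumors, black lines on the right are 95% Clopper-Pearson intervals for counting error, and the high-dose bars on the left run from 5.26% to 24.6%.

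The other mice of the series set these values in context. Low-dose mice (0.5 mg/kg DAC on the same schedule) gave the following values: clonotypes above 1% held 61.2% to 66.2% of TCRβ counts and 50.9% to 60.1% of TCRα counts, and the TCRα Morisita-Horn index ran from 0.325 to 0.706. They share the untreated controls, so no second comparison was made. The untreated time-matched mice, whose tumors were harvested on the same day, held 71.8% to 82.9% of TCRβ counts above 1%, with a TCRβ Shannon index of 0.386 to 0.461 and a TCRα Morisita-Horn index of 0.941 to 0.990. For TCRα they held 42.3% to 81.4% of counts above 1%, with a Shannon index of 0.416 to 0.725 and a largest clonotype of 9.77% to 32.9%. These mice received no DAC. Their TCRβ share above 1% overlapped that of the high-dose mice, and each of these 3 TCRα ranges overlapped both those of the high-dose and those of the untreated time-separated mice.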

How the data were processed

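Receptor chains were amplified from whole-tumor RNA with the SMART-Seq Mouse TCR kit, which adds unique molecular identifiers, and the authors ran the Cogent NGS Immune Profiler for an analysis based on these identifiers and for clonotype calling. The deposited files give a read count per receptor sequence, 1 file per tumor and chain. Whether the deposited counts are those after merging reads of 1 identifier, and the genome build, are not given in the sources used here, so counts may exceed molecules and intervals cover counting error only. Groups followed the treatment and title labels of the samples.

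Sequences with a stop mark or fewer than 2 counts were left out, and sequences with the same CDR3 amino acids, V and J were summed. For diversity, size classes and change between tumors, the 24 libraries of a chain were thinned to 63291 (TCRβ) or 26623 (TCRα) counts, averaging 20 draws. The tumors of a mouse were averaged, except for measures of change, and 3 mice were compared with 3 by two-sided exact permutation tests, adjusted over 13 values per chain. The log2 ratio of a clonotype between tumors had 1 count added. V and J use was tested on counts and clonotype numbers summed per mouse, with edgeR 4.0.16 (quasi-likelihood, filter at a minimum count of 10, library totals as size, Benjamini-Hochberg over both chains) in R 4.3.3. Other steps used Python 3.11.15 with numpy 2.4.6, pandas 2.3.3 and scipy 1.17.1. The scripts were tested on simulated data.

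Segments were named where they passed the threshold, where the mice of the groups did not overlap in clonotype share with at least 1% in either group, and where they were among the 5 V and 3 J segments with the highest counts. The clonotypes named were the largest per mouse, the largest gain and loss per high-dose mouse, and the leading ones found in all mice of a single group. Alternatives were no thinning, thinning to the smallest of the 12 libraries, single counts kept, clonotypes by CDR3 bases, the 20 largest clonotypes tracked, counts at the common depth and clonotype numbers from all retained counts for segments, removal of the largest clonotype, no filter on low values, TMM scaling, DESeq2 1.42.0, a fit over all 4 groups, merged TRAV copies and leaving out each mouse. Groups, segments and families were chosen with earlier results of these data known. Segment synonyms came from RefSeq.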

Additional observations from a re-analysis of the deposited data

Results flagged for a closer look

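The share of TRBJ2-1 in TCRβ counts was lower in tumor 2 than in tumor 1 in 3 of 3 high-dose mice and higher in 3 of 3 untreated mice. It went from 20.1% to 7.17% in mouse 7, from 16.1% to 15.9% in mouse 10 and from 9.74% to 2.98% in mouse 16, and from 8.96% to 16.3% in mouse 4, from 8.13% to 9.55% in mouse 17 and from 11.3% to 19.6% in mouse 19. The mean changes were -6.62 and 5.69 percentage points, a difference of -12.3 points. TRAV4-2 went the same ways, from 0.551% to 0.492% of TCRα counts in mouse 7, from 0.751% to 0.0547% in mouse 10 and from 0.356% to 0.153% in mouse 16, and from 1.03% to 1.31% in mouse 4, from 0.742% to 0.986% in mouse 17 and from 1.31% to 4.17% in mouse 19. The mean changes were -0.32 and 1.13 points, a difference of -1.45 points, and most of the untreated mean came from mouse 19. Both stood out because all mice of a group moved in 1 direction, among 39 signed changes examined. With each clonotype counted once neither pattern held: TRBJ2-1 was higher in tumor 2 of mouse 10 (12.7% to 14.1% of clonotypes) and TRAV4-2 in tumor 2 of mouse 16 (0.572% to 0.799%). By counts the TRBJ2-1 change of mouse 10 was also small. Neither difference was tested, and tumor numbers are not tied to time.

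Sequences with a stop or frame mark were left out of the clonotype comparisons. They took up 27.7% and 24.2% of TCRα counts in the tumors of high-dose mouse 16 and 21.8% in tumor 2 of mouse 7. These values lay above the untreated range of 12.2% to 14.5%. Tumor 1 of mouse 7 lay within that range at 14.1%, and both tumors of mouse 10 lay just under it at 11.8% and 12.1%. The mouse means overlapped (exact permutation p = 0.4), and untreated time-matched mouse 6 reached 25.3% and 24.4%. The largest in mouse 16, a TRAV3-3 and TRAJ42 sequence of 44 bases, held 7.52% and 6.09% of all counts. Among the 32 sets of 6 tumors examined, none held a tumor whose gap to its neighbor passed Dixon's critical value. Chance passes it in about 1 in 20 sets of independent values, but each set held both tumors of 3 mice. Tumors of 1 mouse are not independent, so this rate need not hold and an outlying mouse could go unseen.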

How the results depend on the processing

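With 3 mice or fewer per group no exact permutation test could pass 0.05, so its side of the threshold could not change and only direction and overlap are informative. Without a mouse left out, 149 values under other settings kept their direction or their number of calls. Groups that were apart came to overlap for the TCRβ clonotype number without thinning (-115), and for the share of the largest TCRα clonotype (5.24 points) and the TCRα Morisita-Horn index (0.346) with the largest clonotype removed. The TCRβ median absolute log2 ratio of the 10 largest clonotypes changed sign when the largest clonotype was removed, from -0.12 to 0.15, and 3 TCRα segments passed the threshold on counts without the filter on low values. The cause was not tested. Leaving out each mouse in turn gave 168 values with an unchanged direction or number of calls. The exceptions ranged from -0.62 to 0.36 for the TCRβ median log2 ratio, from -0.0326 to 0.166 for the TCRβ Morisita-Horn index, from -4.08 to 5.91 points for the TCRβ J usage change, from -0.0217 to 0.1701 residues for TCRα CDR3 length by clonotypes, from -1.22 to 0.22 for the TCRα median log2 ratio, and from 0 to 1 for TCRα segments called on counts. The smallest library of TCRα is among the 12 tumors compared, so thinning to the smallest of these gave no further value. No paired analysis was possible because mouse numbers are not shared between the groups. The shallowest libraries, with 26623 TCRα and 63291 TCRβ counts, limit the detection of rare clonotypes, and 3 mice per group limit every exact permutation test to a p of 0.1 or more.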

Other observations

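Chains that joined TRAV7-2 to TRAJ40 with a CDR3 of 14 residues recurred in all 6 mice. They made up 1.74%, 0.985% and 0.433% of TCRα counts in high-dose mice 7, 10 and 16 and 0.924%, 1.62% and 1.80% in untreated mice 4, 17 and 19, spread over 7 to 56 clonotypes per tumor. This set was chosen after its values were seen and was not tested. Among TCRβ sequences, TRBD1 was assigned to 32.6% ± 13.3 of counts in high-dose mice and 38.0% ± 7.77 in untreated mice (SD, n = 3 mice), and TRBD2 to 40.5% ± 7.38 and 33.7% ± 3.34, with overlapping ranges.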
